A study of Mus musculus with 4 samples.

Results

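The genes described here are 10 members of the NRF2 (Nfe2l2) antioxidant programme and of glutathione synthesis: Nfe2l2, Gclc, Gclm, Gss, Gsr, Gpx1, Nqo1, Hmox1, Txnrd1 and Srxn1. They were chosen by gene symbol from the platform annotation of a mouse expression array, on which 18193 genes had a probe set with a single symbol, and each gene is given by its brightest probe set. The data are 4 arrays of liver RNA, 1 for each of 2 groups at day 7 and day 10. All mice carried floxed Met and a tamoxifen-inducible Cre, written Metff/ff:ERCre+/+ or METfl/fl: TamCre+/+ in the labels. In the group labelled delta MET + EGFRi, tamoxifen on 5 days removed exon 16 of Met, and after 4 days of rest canertinib, an inhibitor of the EGF receptor, was mixed into the diet at an intended 80 mg/kg/day. Control littermates received corn oil alone. Days count from the start of canertinib, and in controls from the end of the same 4 days of rest. The promoter that drives Cre, the age, sex and strain of the mice and the number of livers in a pool are not given in the sources used here. Met deletion, tamoxifen and canertinib cannot be told apart, since the controls had none of them.

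NRF2 is a transcription factor that the adaptor KEAP1 marks for destruction in resting cells. Oxidants and electrophiles block KEAP1, and NRF2 then enters the nucleus, pairs with a small MAF protein and binds antioxidant response elements near genes of glutathione, thioredoxin and quinone metabolism. The liver makes and exports much of the body's glutathione, a tripeptide whose first and rate-limiting bond is formed by glutamate-cysteine ligase, a dimer of a catalytic subunit (Gclc) and a modifier subunit (Gclm).

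The core of the antioxidant response element, TGAC followed by any 3 bases and GC, was searched on both strands of RefSeq promoter windows (assembly GRCm38.p6, 250 bases before to 50 after a start). Of the 10 genes, 7 had windows, and in 4 of these at least 1 window held the core. The core was present in 12.4% of all 32851 windows, and 14.0% of all 27025 genes had a window with it. The 4 matches are shown to give the place of this core string within the windows searched, each 5′ to 3′ on the gene's strand with the core in capitals. The core of Nfe2l2 starts 240 bases before the start (window chr2:75704865-75704913, minus strand). Those of Gclm (chr3:122245393-122245461, plus strand) and Txnrd1 (chr10:82859084-82859152, plus strand), at 134 and 92 bases before it, read in the reverse direction. That of Srxn1 (chr2:152105542-152105570, plus strand), also reversed, begins at base 29 after the start.
Nfe2l2: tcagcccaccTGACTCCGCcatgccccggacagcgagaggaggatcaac
Gclm: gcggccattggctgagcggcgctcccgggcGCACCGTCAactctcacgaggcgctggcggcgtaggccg
Txnrd1: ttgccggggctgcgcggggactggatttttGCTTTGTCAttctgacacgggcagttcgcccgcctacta
Srxn1: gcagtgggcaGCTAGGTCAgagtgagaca
The windows of Gss, Gpx1 and Nqo1 held no match, and Txnrd1 had it in 1 of 3 windows. Bases outside the windows were not searched, so a core farther from the start would be missed. Gclc, Gsr and Hmox1 had no entry in the table used. A match is a string of letters and not a measured binding site.

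Median signals were 210.5 to 223.9 units, and Pearson's r between the log2 signals of 2 arrays, over probe sets, lay between 0.890 and 0.914. Precision is limited by there being 4 arrays. RNA was pooled and the arrays of a group come from different days, so p-values measure only the spread between these pools, days included. The Met probe set was not lower in treated livers (log2 difference 1.24 ± 0.23 (SE), adjusted p = 0.103). Whether its probes lie in the deleted exon was not analysed here, so this does not check the deletion.

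The comparison of treated with control livers over both days showed a fall of Gclc, while the other 9 genes did not pass the test. The Gclc call was itself lost in 5 of the alternatives, with adjusted p from 0.0518 to 0.240. All 10 genes were bright enough for the limma test, which covered 11993 genes. At a Benjamini-Hochberg adjusted p under 0.05, 1 of the 10 fell (Gclc) and 0 rose, where 0.283% of all genes tested fell and 0.375% rose (0.659% together). Gclc was also the single member with an unadjusted p under 0.05, against 12.1% of all genes tested. In 3 of the 10 (Nfe2l2, Gclc and Gpx1) both treated arrays lay below both control arrays, a pattern seen in 24.1% of all genes. In 2 (Txnrd1 and Hmox1) both lay above, against 20.3% of all genes, so that groups did not overlap in 5 of the 10 and in 44.4% of all genes. The median log2 difference of the 10, treated minus control, was -0.11, and that of all genes tested -0.02. The sign of the members' median turned, to 0.15, when all probe sets of a gene were averaged, and to 0.08 without the day 10 treated array.

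**Figure D1:**
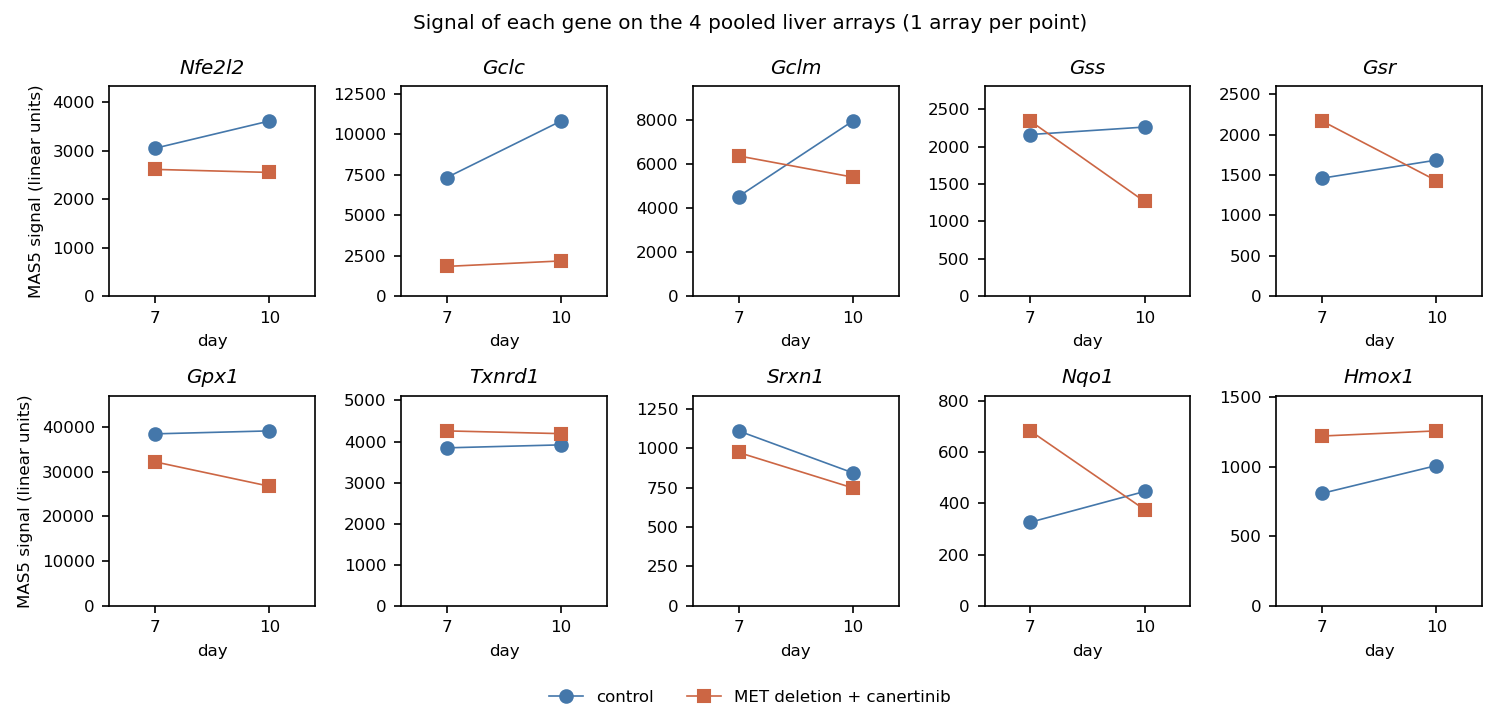
Signal (MAS5, linear units, axes from 0) of each of the 10 genes at day 7 and day 10, with circles for control and squares for treated livers, 1 pooled array per point and lines joining the arrays of a group. Relative to its control arrays (7318.1 and 10810.6 units), Gclc has the lowest treated arrays of the 10 genes (1827.7 and 2165.5 units).

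Nfe2l2, the regulator itself, had signals of 3049.1 and 3611.4 units in the control livers of day 7 and day 10, and of 2612.6 and 2550.2 units in the treated livers. Both treated arrays were lower than both control arrays, and the gap between the groups was smaller than that between the controls. The log2 difference was -0.36 ± 0.21 (SE, n = 2 arrays per group) and did not pass (adjusted p = 0.544 by limma), with a 95% interval of -0.86 to 0.14. A further Nfe2l2 probe set was too dim to test, at 18.8 to 192.3 units, and averaging it with the brighter one turned the difference to 0.10.

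Gclc, the catalytic subunit of glutamate-cysteine ligase, gave 7318.1 and 10810.6 units in control livers at day 7 and day 10, and 1827.7 and 2165.5 units in treated livers. The highest treated signal lay far under the lowest control signal, and the gap exceeded the difference between the arrays of either group. The group means were 9064 ± 2469.6 and 1997 ± 239 units (SD, n = 2). Gclc was 4.00-fold lower at day 7 and 4.99-fold lower at day 10, and over both days it fell by 2.16 ± 0.26 on the log2 scale (SE), a fold of 4.47 with a 95% interval of 2.90 to 6.90 (adjusted p = 0.0276 by limma). In order of log2 difference, it stood at place 48 from the lowest of 11993 genes tested. The other Gclc probe set fell as well. Its signals were 5418.9 and 7021.0 units in control and 897.4 and 1297.5 units in treated livers, a log2 difference of -2.52 ± 0.27 (adjusted p = 0.0239 in a limma fit over probe sets). The direction was the same in every alternative run, but the call of the brightest probe set was lost with day as a block (adjusted p = 0.0518), without the intensity trend (0.0727), without a filter on dim genes (0.240), without the day 7 control array (0.0883) and without the day 10 control array (0.222).

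Gclm, the modifier subunit that lowers the enzyme's need for glutamate and its inhibition by glutathione, did not share the fall. Control livers had 4511.2 and 7937.0 units and treated livers 6353.1 and 5391.4 units. The treated arrays lay between the controls, so the groups overlapped. The log2 difference was -0.03 ± 0.31 (adjusted p = 0.979), with an interval of -0.77 to 0.71. A dimmer Gclm probe set had both treated arrays (1436.0 and 1285.8 units) below both controls (1507.9 and 2341.5 units), which came to -0.47 ± 0.27 on the log2 scale (adjusted p = 0.566, not past the test).

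The balance of the subunits' signals was compared within each array, a comparison chosen after their values were seen. The log2 of Gclc over Gclm was 0.70 and 0.45 on the control arrays of day 7 and day 10, and -1.80 and -1.32 on the treated arrays. The ratio was thus lower on both treated arrays, with a change of -2.50 at day 7 and of -1.76 at day 10. The mean change was -2.13 with the brightest probe sets and -2.05 with the other pair. These ratios are a description with no test, restate the lower Gclc signal against that of Gclm, and do not give the amount of either subunit.

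Gss, glutathione synthetase, which adds glycine in the last step of synthesis, had 2164.1 and 2264.2 units in control and 2345.5 and 1266.7 units in treated livers. The day 7 arrays were nearly level, while the treated array of day 10 was 1.79-fold below its control. Over both days the log2 difference was -0.36 ± 0.32 (adjusted p = 0.697). The other Gss probe set gave 1162.9 and 1843.0 units in control and 1475.4 and 1490.9 units in treated livers, a log2 difference of 0.02 ± 0.28, so the lower day 10 signal was much weaker there (1.24-fold).

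Gsr, the reductase that restores oxidised glutathione, had 1459.5 and 1683.5 units in control livers and 2168.3 and 1429.7 units in treated livers. It was 1.49-fold higher at day 7 and 1.18-fold lower at day 10, and the log2 difference over both days, 0.17 ± 0.27, did not pass (adjusted p = 0.839). A second Gsr probe set was higher on both treated arrays (1199.6 and 1102.6 units) than on both controls (924.8 and 1030.4 units), by 0.24 ± 0.22 on the log2 scale (adjusted p = 0.716).

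Gpx1, the selenoenzyme that uses glutathione to reduce hydrogen peroxide, stood at 38408.4 and 39069.0 units in control and 32154.9 and 26712.4 units in treated livers. Its treated arrays were both lower, with controls close together. The log2 difference was -0.40 ± 0.22, which did not pass (adjusted p = 0.524), and its interval ran from -0.92 to 0.12. Gpx1 had a single probe set.

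Txnrd1, the cytosolic reductase that keeps thioredoxin reduced, was nearly level between the groups. Control livers had 3846.8 and 3919.4 units and treated livers 4259.3 and 4192.6 units. Although the groups did not overlap, the log2 difference was 0.12 ± 0.19 (adjusted p = 0.840). Its interval of -0.35 to 0.59 does not reach a 2-fold change. A dimmer Txnrd1 probe set read 479.3 and 592.9 units in control against 752.1 and 862.3 units in treated livers, 0.60 ± 0.24 on the log2 scale (adjusted p = 0.416), and the dimmest, at 135.7 to 188.1 units, was not tested.

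Srxn1, sulfiredoxin, repairs overoxidised peroxiredoxins and is a well-known NRF2 target. It had 1109.2 and 843.4 units in control livers and 972.6 and 747.7 units in treated livers, lower at both days by small amounts and with overlapping groups. The log2 difference was -0.18 ± 0.25 (adjusted p = 0.815). Its 3 other probe sets gave log2 differences of -0.08, 0.05 and 1.03, none past the test. The last of these, read at 229.7 and 166.4 units in control and at 327.1 and 489.9 units in treated livers, had an adjusted p of 0.370. The direction of Srxn1 therefore depended on the probe set.

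Nqo1, the quinone reductase widely used as a readout of NRF2 activity, was the dimmest of the 10 probe sets. Control livers had 326.1 and 446.0 units and treated livers 682.2 and 375.5 units. It was 2.09-fold higher at day 7 and 1.19-fold lower at day 10. One treated array lay above both controls and the other between them. Over both days the log2 difference was 0.41 ± 0.36 (adjusted p = 0.699), with the widest interval of the 10 genes, -0.47 to 1.28.

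Hmox1, haem oxygenase, opens the haem ring and is induced by NRF2 once the repressor BACH1 leaves its promoter. It had 808.4 and 1007.8 units in control and 1220.3 and 1257.2 units in treated livers. Both treated arrays were above both controls, 1.51-fold at day 7 and 1.25-fold at day 10. The log2 difference was 0.46 ± 0.22 and did not pass (adjusted p = 0.480; interval -0.07 to 0.99). Macrophages that clear red cells also make Hmox1, and macrophage markers differed in the same direction. Of 14 Kupffer cell and macrophage markers 14 were higher at both days, against 26.7% of all genes tested, and 3 rose, against 0.375%. Their summed signal was 14690.8 to 25556.9 units in control and 53892.2 to 54174.6 units in treated livers, and none lay at the floor of 64.7 units. Their part in the Hmox1 signal was not tested. In whole liver RNA, more cells of a type and more RNA per cell cannot be told apart.

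Hepatocyte markers did not fall with Gclc. Of 13 tested, 0 passed limma's test at the adjusted threshold and 3 had an unadjusted p under 0.05, against 12.1% of all genes tested. Of the 13, 8 were higher and 1 was lower at both days (26.7% and 31.1% of all genes tested). Their summed signal was 625316 to 631927 units in control and 712586 to 777589 units in treated livers. At day 10 the higher sum lay in the fibrinogen genes Fga, Fgb and Fgg, which are also acute phase genes. These had 46735.4, 51199.1 and 54215.1 units in control and 75690.5, 89171.6 and 80709.6 units in treated livers. Apoa1, Cps1, Hpd and Tdo2 were higher at day 7 and lower at day 10, and Ttr was lower at both (genes named after their values were seen). Erythroid markers, relevant to Gpx1 because red cell precursors make it, were mostly dim. Among the 10 listed, 6 were on the array by a single symbol and 2 were tested, with 0 passing by limma and 1 with an unadjusted p under 0.05. The summed signal of the 6 was 4545.5 to 5111.0 units in control and 2544.3 to 3297.9 units in treated livers. The lower sum lay in Alas2, the brightest of them, named after its values were seen. It had 3970.7 and 3735.3 units in control and 1043.1 and 1977.1 units in treated livers. The red cell anion exchanger Slc4a1, below the filter, differed the other way, with 60.1 and 51.9 units, under the floor, in control and 521.3 and 574.8 units in treated livers (named after its values were seen). The part of such cells in the Gpx1 signal was not tested. Of 9 neutrophil markers tested 3 rose, against 0.375% of all genes tested, and 7 were higher and 0 lower at both days. Of the 3, Prtn3 had 44.2 and 49.2 units, under the floor, in control livers. It had 1540.9 and 4543.7 units in treated livers and passed the filter only through these arrays. The granule genes Elane and Mpo, with log2 differences of -0.07 and 0.14, did not pass. For sinusoidal endothelial, stellate, cholangiocyte, and T, NK and B cell markers, 0 of 9, 7, 3 and 5 tested passed by limma, with 0, 1, 0 and 0 at an unadjusted p under 0.05.

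**Figure D2:**
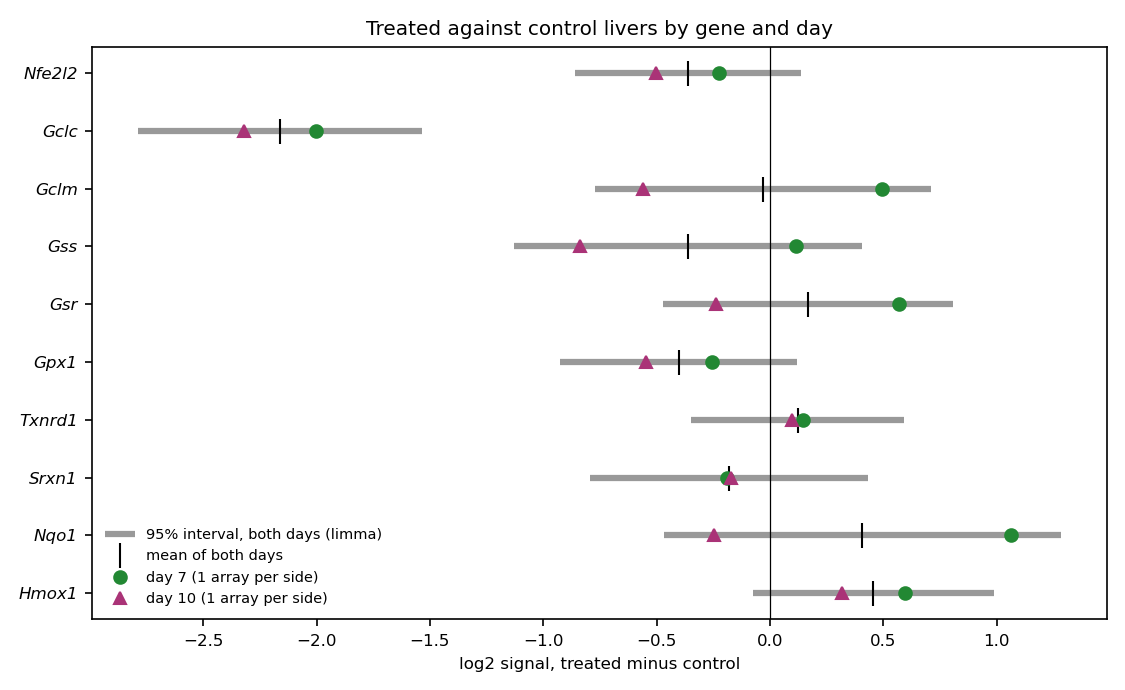
Log2 signal, treated minus control, for each of the 10 genes at day 7 (circles) and day 10 (triangles), 1 array per side, with the mean of both days (vertical ticks) and limma's 95% interval (grey bars). The Gclc interval alone excludes 0, while Gclm, Gss, Gsr and Nqo1 lie on different sides of 0 at the 2 days.

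The days were then set side by side. At day 7, 1 member was past 2-fold lower (Gclc) and 1 past 2-fold higher (Nqo1), against 5.16% and 4.6% of all genes tested (9.76% together). At day 10 Gclc was again lower and 0 members were past 2-fold higher, against 4.91% and 5.84% of all genes (10.7% together). With 1 array per side these are sizes without a test.

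Nfe2l2, Gclc, Gpx1 and Srxn1 were lower at both days and Txnrd1 and Hmox1 higher at both. The remaining 4, Gclm, Gss, Gsr and Nqo1, were higher at day 7 and lower at day 10, a pattern held by 18.3% of all genes tested. The reverse, lower at day 7 and higher at day 10, was held by 0 of the 10 and by 23.8% of all genes. These signs are those of the brightest probe sets. With its other probe set Gclm was lower at both days (-0.07 and -0.86) and Gsr higher at both (0.38 and 0.10). The other Gss probe set kept the change of sign (0.34 and -0.31). The median log2 difference of the 10 was 0.13 at day 7 and -0.38 at day 10, while that of all genes was -0.06 and 0.01. In 9 of the 10 the difference at day 10 lay below that at day 7, as in 46.9% of all genes, Srxn1 being the exception (-0.19 and -0.17), though not with arrays scaled to equal medians (10 of 10).

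Both sides contributed to these shifts. From day 7 to day 10 Gclm differed by 0.82 between the control pools and by -0.24 between the treated pools on the log2 scale. Nqo1 differed by 0.45 and -0.86, Gsr by 0.21 and -0.60, and Gss by 0.07 and -0.89. With these probe sets the shift of Gss and Gsr lay mostly in the treated pools, and that of Gclm mostly in the control pools. The other Gss probe set instead differed by 0.66 between the control pools and by 0.02 between the treated pools. That of Gsr differed by 0.16 and -0.12, and that of Gclm by 0.63 and -0.16. For Gss and Gsr the side of the shift therefore depended on the probe set.

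**Figure D3:**
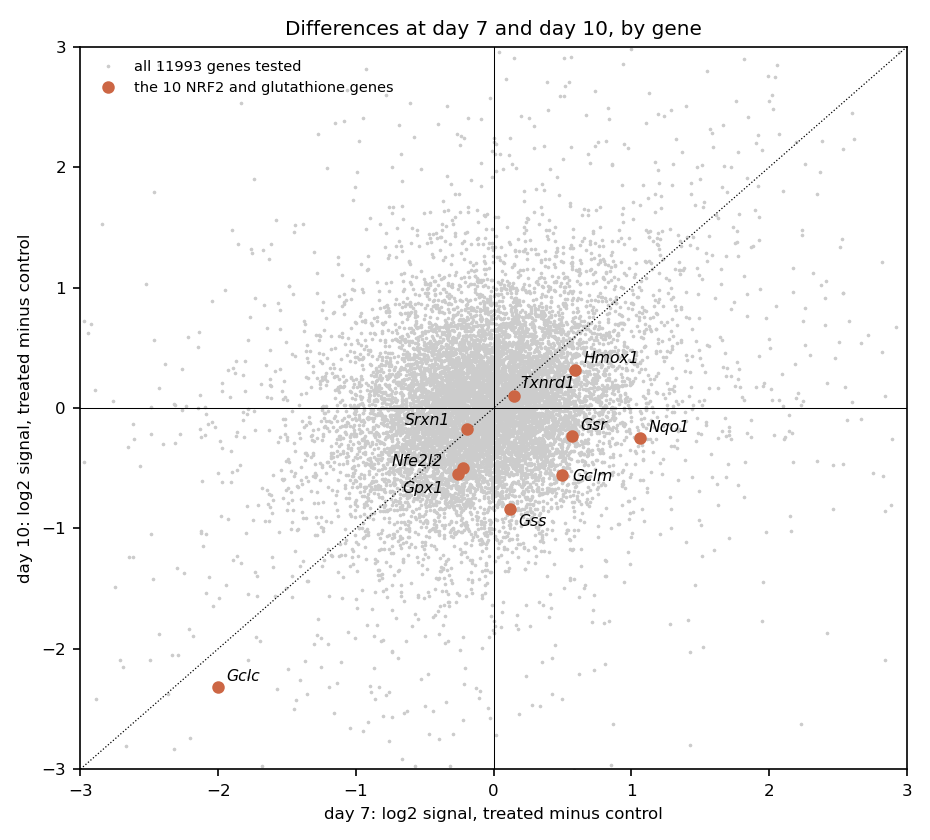
Log2 signal, treated minus control, at day 7 (horizontal) and day 10 (vertical), with each of the 11993 genes tested as a grey dot and the 10 genes as labelled points; the dotted line marks equal differences, and 114 genes lie outside the range of 3 shown. Gclc stands at the lower left near the line, and 9 of the 10 points lie below the line.

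The other genes of glutathione metabolism and of the NRF2 response were taken from a list of 118 genes in 10 roles, of which 105 had a probe set with a single symbol and 94 were tested. The one gene of the list that passed was Gstm6, a glutathione S-transferase of the mu class, which fell, and 0 rose. Over all genes tested 0.283% fell and 0.375% rose. Of the 94, 26 had an unadjusted p under 0.05 by limma, against 12.1% of all genes tested. Among the 94, 35 lay below control on each day and 18 above it, against 31.1% and 26.7% of all genes tested. The same shares stand beside the counts by role below. The median log2 difference was -0.07.

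Glutathione S-transferases, which join glutathione to electrophiles, were mostly lower. Of 19 tested, 13 were lower at both days and 0 higher at both, and in 13 both treated arrays lay below both controls, against 24.1% of all genes tested. The median log2 difference was -0.69, with -0.35 at day 7 and -0.92 at day 10, and it was -0.41 without the day 10 treated array. Gstm6 had 2590.0 and 2476.3 units in control and 752.8 and 526.4 units in treated livers, with no overlap. It fell 4.02-fold (log2 difference -2.01 ± 0.25, adjusted p = 0.0277). That call was lost when probe sets were averaged (adjusted p = 0.0530), with day as a block (0.0629), without the intensity trend (0.0739), without a filter on dim genes (0.232), without the day 7 control array (0.189) and without the day 10 control array (0.222). Gsta2, an alpha class enzyme, had 1817.7 and 4423.5 units in control and 682.4 and 92.3 units in treated livers. The log2 difference, -3.50 ± 0.91, was short of the threshold (adjusted p = 0.217), and the treated arrays were themselves far apart. Gstm3 had 9180.5 and 9749.5 against 4402.3 and 2689.8 units (log2 difference -1.46, adjusted p = 0.110). Genes within the mu class, and genes within the alpha class, are close in sequence, so a probe set may read more than one gene of its class.

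Other detoxification enzymes of the NRF2 response had a median log2 difference of -0.72 over 10 genes. Of these, 7 were lower and 0 higher at both days, against 31.1% and 26.7% of all genes tested. Cbr1, named after its values were seen, was 6.75-fold higher at day 7 and 1.46-fold lower at day 10 (adjusted p = 0.595 by limma over both days). Ephx1, the microsomal epoxide hydrolase, had 10545.1 and 17428.5 units in control and 5115.6 and 1534.3 units in treated livers (log2 difference -2.27 ± 0.56, adjusted p = 0.199). Nqo2, a quinone reductase related to Nqo1, had 2726.3 and 3127.3 against 1159.4 and 1300.3 units (-1.25 ± 0.21, adjusted p = 0.0749). Unlike the signals of Nqo1, those of Nqo2 were lower on both treated arrays, although neither gene passed and the difference between them was not tested.

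NADPH supply, on which both glutathione and thioredoxin reductases draw, had a median of -0.26 over 9 genes, with 5 lower and 1 higher at both days. Malic enzyme Me1 had 11450.6 and 17520.4 units in control and 4196.3 and 3098.5 units in treated livers. Its log2 difference of -1.97 ± 0.29 missed the threshold (adjusted p = 0.0506). It passed with quantile normalization (0.0399), with arrays scaled to equal medians (0.0499), with the floor at the 40th percentile (0.0443), with dim genes filtered at the 75th percentile (0.0469), and without the day 7 (0.00168) or day 10 (0.00749) treated array. It did not pass with averaged probe sets (0.203), without the intensity trend (0.114), with day as a block (0.142), without a filter on dim genes (0.309) or without the day 7 (0.141) or day 10 (0.325) control array. Mitochondrial Idh2 was at -0.51 (adjusted p = 0.459).

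The role listed as haem breakdown and ferritin had a median log2 difference of 0.37 over 7 genes, and of 0.32 to 0.62 with an array left out. At both days 5 were higher (Hmox2, Blvra, Blvrb, Slc48a1 and Fech) and 0 lower. Of these, Fech belongs to haem synthesis and Slc48a1 to haem transport. The ferritin gene tested, Fth1, was not among them, at 0.10 at day 7, -0.48 at day 10 and -0.19 over both days (named after its values were seen). Blvrb, a biliverdin reductase, had 3418.5 and 2977.3 units in control and 6270.3 and 4669.1 units in treated livers (0.76 ± 0.23, adjusted p = 0.284). Hmox2, the constitutive haem oxygenase, had 1340.9 and 1298.9 against 2392.0 and 1981.7 units (0.72 ± 0.21, adjusted p = 0.263). Both were above the controls on each treated array, as Hmox1 was, and neither passed.

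Regulators of NRF2 showed no common direction. The median log2 difference was 0.13 over 9 genes. Among the small MAF partners, Mafg had 1369.8 and 1100.1 units in control and 2308.6 and 1680.9 units in treated livers (0.68 ± 0.25, adjusted p = 0.363). Mafk had 756.9 and 626.0 against 295.0 and 484.0 units (-0.87 ± 0.31, adjusted p = 0.354). The inhibitor Keap1 was at 0.09 ± 0.20 (adjusted p = 0.895), named after its value was seen.

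The supply of methionine and cysteine, from which glutathione takes its sulphur, had a median of 0.01 over 10 genes. Of these, 8 changed sign between the days, against 5050 of all 11993 genes tested. Slc3a2 and Cbs, named after their values were seen, were lower at day 7 and higher at day 10, and the others the reverse. The median of the role was 0.63 at day 7 and -0.19 at day 10. Mat1a, the liver's methionine adenosyltransferase, had 18545.3 and 21631.8 units in control and 62079.8 and 39772.0 units in treated livers, with both treated arrays well above the controls (1.31 ± 0.28, adjusted p = 0.146). Cdo1, which diverts cysteine to taurine and sulphate, was at 0.44 (adjusted p = 0.631). In glutathione breakdown and export the median was 0.18 over 9 genes. The hydrolase Ggt5 was at 0.88 (adjusted p = 0.537) and the cyclotransferase Chac2 at -0.57 (adjusted p = 0.430).

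Among peroxidases, glutaredoxins and glyoxalases the median was -0.02 over 8 genes. Gpx3, the secreted glutathione peroxidase, had 350.4 and 445.7 units in control and 1580.1 and 996.7 units in treated livers, with no overlap (1.67 ± 0.30, adjusted p = 0.0882). It thus differed in the direction opposite to Gpx1, though neither passed and the difference was not tested. The glyoxalase Hagh, which releases glutathione from its lactate ester, was at -1.06 (adjusted p = 0.159). Thioredoxins and peroxiredoxins had a median of -0.23 over 8 genes, with 5 lower at both days. Among them Prdx2 was at -0.60 (adjusted p = 0.341) and mitochondrial Txnrd2 at -0.56 (adjusted p = 0.412). Of 5 superoxide dismutase and catalase genes, whose median was 0.01, catalase (Cat) was at -0.69 (adjusted p = 0.358) and the extracellular dismutase Sod3 at 0.41 (adjusted p = 0.626).

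**Figure D4:**
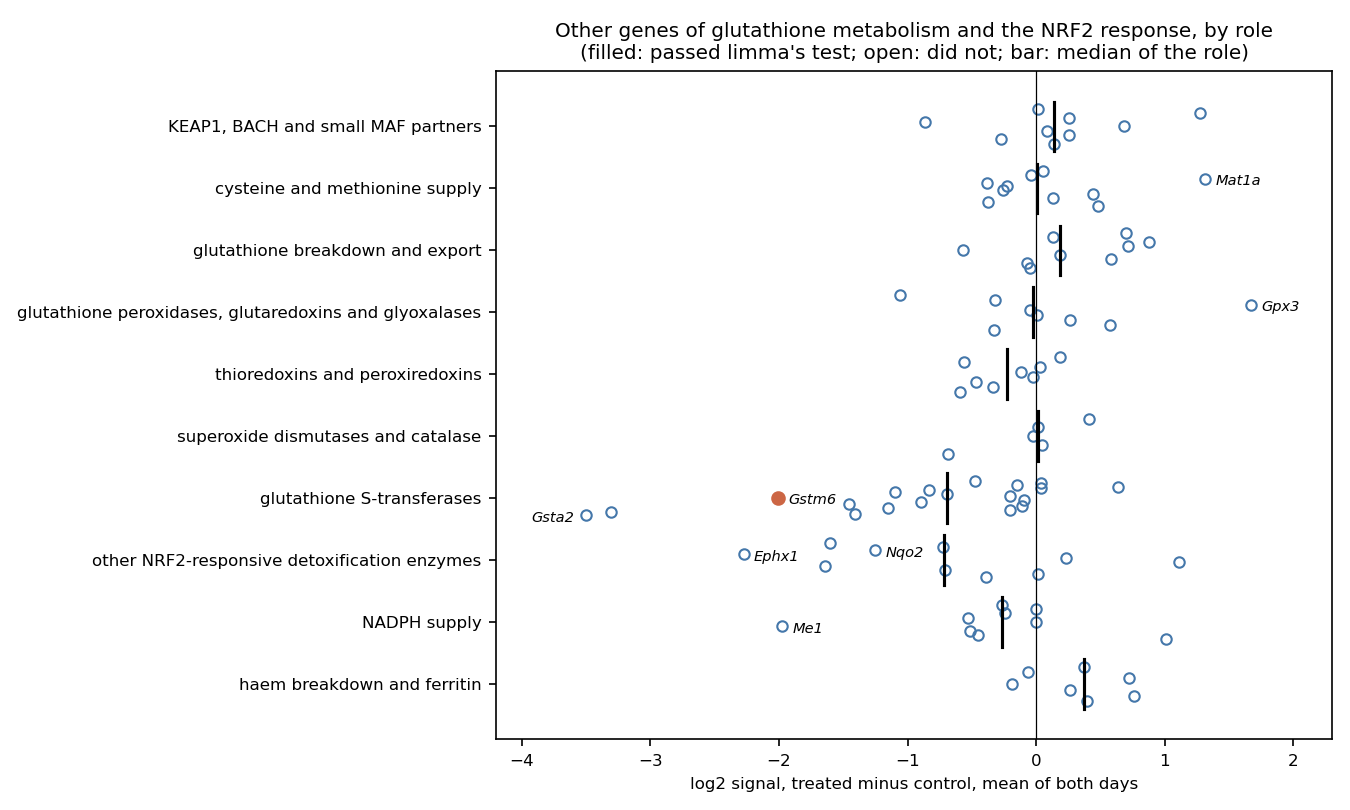
Log2 signal, treated minus control, mean of both days, of the 94 tested genes of glutathione metabolism and the NRF2 response outside the 10, by role, with open circles for genes that did not pass limma's test, a filled circle for the one that did and a bar at each role's median. The bars of the S-transferases (-0.69) and of the other detoxification enzymes (-0.72) lie farthest to the left.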

How the data were processed

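Per the submitters' processing notes, the authors' deposited values were made with MAS5 (version not given in the sources used here) and are linear signal intensity per probe set. Of 45101 probe sets, 64 are array controls. The platform annotation pairs 34945 with one symbol, 932 with more and 9160 with none, and the first kind alone was used. Through their Entrez IDs, 99.4% of these matched RefSeq (GRCm38.p6).

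Signals under the 25th percentile (64.7) were set to it and log2 was taken. Each gene was represented by its brightest probe set, and the 11993 of 18193 genes with a mean log2 above 7.67 were tested. The test was that of limma 3.58.1 under R 4.3.3 (groups as the one factor, intensity trend, two-sided, Benjamini-Hochberg over all genes tested, 2 residual degrees of freedom). Its code was run on simulated arrays, independent, with the spread that limma had fitted and without a day effect. That run does not cover days serving as replicates, as they do here. Single days have 1 array per side and no test. The members, lists and tests were chosen with earlier results of these data known. Named were all 10 members and, per role of the wider list, genes past the test and up to 2 others of one sign at both days, ranked by the smaller of the daily differences. Alternatives changed normalization, floor, filter, probe set summary, variance model, day block, threshold and arrays. Figures used matplotlib 3.10.9.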

Additional observations from a re-analysis of the deposited data

Results flagged for a closer look

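By the brightest probe sets, treated and control livers differed in opposite directions at the 2 days for 4 of the 10 genes, each higher at day 7 and lower at day 10. The other probe set of Gss kept this change of sign. Those of Gclm (-0.07 and -0.86) and Gsr (0.38 and 0.10) did not. With the brightest probe sets, the log2 difference at day 10 minus that at day 7 was -1.31 for Nqo1, -1.05 for Gclm, -0.95 for Gss and -0.81 for Gsr. With 1 pooled array per group and day, the difference between the days was not tested.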

How the results depend on the processing

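Gclc kept its direction in every alternative run. The count of members past the test was 0 without a filter on dim genes, without the intensity trend and with day as a replicate block (1 unadjusted p under 0.05 by limma in each), and ran from 0 to 1 over the fits that leave out an array. Of the wider list, 2 passed with quantile normalization, equal medians, the 40th percentile floor and the 75th percentile filter, 4 at an adjusted p under 0.1, and 0 with averaged probe sets, no filter, no trend or the block. The range with an array left out was 0 to 22. Over all genes 42 passed with averaged probe sets, 0 with no filter (1919 of 18193 at an unadjusted p under 0.05 by limma), 42 with no trend, 47 with the block and 162 at an adjusted p under 0.1, and 24 to 466 with an array left out. The difference between day 10 and day 7 in the control pools had a correlation of -0.07, over genes tested, with that in the treated pools. Whether part of the genes shared a day effect was not tested. At day 7, 1 of the 9 members left by the 75th percentile filter was past 2-fold and 1 member was past 3-fold, and 2 were past a 1.5-fold rule at day 10. Averaged probe sets gave a members' median of 0.15, and turned Nfe2l2 to 0.10 and Srxn1 to 0.21. Other probe sets put Gss at 0.019 and Srxn1 at 0.047 and 1.03. With an array left out, the members' median ran from -0.26 to 0.085, Gclm from -0.44 to 0.38, Gss from -0.81 to 0.084, Gsr from -0.13 to 0.47, Srxn1 from -0.38 to 0.016 and Nqo1 from -0.022 to 0.84. The causes were not tested. Where a group is left with 1 array, that array is assumed to vary like the other group.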

Other observations

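3 further genes of the wider list, named after their values were seen, had larger differences at day 10 than at day 7. The alpha class transferase Gsta4 had 1621.8 and 3469.2 units in control livers at day 7 and day 10, and 892.1 and 42.9 units in treated livers, the last below the floor. Aox1, aldehyde oxidase, had 4042.5 and 6081.1 against 2221.5 and 1140.2 units (log2 difference -1.64 ± 0.37, adjusted p = 0.166). Ugdh, which makes the UDP-glucuronate used in glucuronidation, had 8874.7 and 14158.9 against 4762.6 and 2854.9 units (-1.60 ± 0.34, adjusted p = 0.146). None of the 3 passed limma's test (adjusted p = 0.330 for Gsta4), and in each both treated arrays lay below both controls.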
